A study of Rattus norvegicus with 24 samples.

Results

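The 9 genes Serpinb1a, Tspo, Anxa3, Cyba, Cd53, Cd37, Ifi30, Tmem176a and Plac8 were followed in the spinal dorsal horn of rats with a peripheral nerve injury. They were chosen by the measured values of these same arrays, since the difference between injured and sham animals was larger in adults than in neonates. All probe sets bearing 1 of the 9 symbols were taken, which gave 12 of the 15866 probe sets on the array and 9 of its 10411 named genes. Anxa3 had 3 probe sets, Cyba had 2 and the other genes had 1 each. The probe set with the highest mean stood for its gene.

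Sprague-Dawley rats received a spared nerve injury (SNI) or a sham operation that only exposed the nerve. In SNI the sural branch is kept, while ligature and cutting interrupt the other main branches of the sciatic nerve, the tibial and the common peroneal. The 4 groups were adult SNI, adult sham, neonate SNI and neonate sham, with 6 arrays of biologically independent tissue each. Adults were 8 to 12 weeks old and neonates were labelled postnatal day 10, which the labels do not tie to surgery or to tissue collection. Tissue was the dorsal horn ipsilateral to surgery, and the SNI groups were taken 7 days after injury. The titles of the sham samples give no number of days after surgery. The labels name no transgene, deletion or drug in any group.

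The deposited values are log2 expression per probe set, so that 1 unit is a doubling. The median value per array ran between 5.57 and 5.67 log2, and the lowest correlation between any pair of the 24 arrays was 0.984. Values near the array background carry little information, and a filter level of 3.84 log2, the 40th percentile of all values, was used to mark them. A probe set was tested if it lay above that level on at least 6 arrays, which 9638 probe sets and 7006 genes did. All 9 genes passed the filter, and 2 of their 12 probe sets did not. Precision is limited by having 6 arrays in each group.

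The sensory branches of the sciatic nerve end in the dorsal horn, where microglia, the resident macrophages of the central nervous system, respond to injury of distant sensory fibres. Several of the 9 genes are known from cells of the blood and macrophage lineage. Cd53 and Cd37 are tetraspanins, membrane proteins of leukocytes that organise receptors. Cyba encodes p22phox, the membrane partner of the catalytic chain of the phagocyte NADPH oxidase. Ifi30 encodes a thiol reductase of the lysosome that unfolds antigens for MHC class II presentation. Tspo encodes a translocator protein of the outer mitochondrial membrane, the target of imaging ligands for activated glia. Serpinb1a is an inhibitor of neutrophil serine proteases, Anxa3 a calcium-dependent phospholipid-binding protein, Tmem176a a membrane protein related to the MS4A family and Plac8 a small cysteine-rich protein.

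Upstream sequence was compared because the 9 genes were picked for a shared pattern. RefSeq sequences on build GRCr8 were matched for 8 of the 9 genes, from 250 bases before to 50 bases after the start used by that table. The letters GAGGAAGT, a form of the site bound by the myeloid factor PU.1, were found on either strand in 3 of the 8 windows, against 2.44% of 27457 rat promoter windows of the same length. The 3 genes were Cd37, Cd53 and Serpinb1a, and in each the match read ACTTCCTC along the gene's own strand. Counted from the start, with the base before it as -1, the first matched base lay at -79 in Cd37, -46 in Cd53 and -36 in Serpinb1a. The outer edge of the annotated Cd37 gene lies 327 bases farther upstream than the start used here, so the Cd37 match lies within the span of the gene. That distance was 3873 bases for Tmem176a, whose window lies wholly inside its annotated gene, 81 for Anxa3, 29 for Cd53 and 0 for the other 4. The letters TCACGTGA, the core of the element bound by the lysosomal regulator TFEB, were found on either strand in 1 of the 8 windows, at -21 in Ifi30, and in 0.867% of all windows. Stretches of 30 bases around these matches are shown 5′ to 3′ on the gene's strand, with the matched letters in capitals. They lie at chr1:104860845-104860874 (minus strand) for Cd37, chr2:197087924-197087953 (minus strand) for Cd53, chr17:31799399-31799428 (plus strand) for Serpinb1a and chr16:18709538-18709567 (plus strand) for Ifi30.
Cd37: ccacccccggaACTTCCTCtttctctgccc
Cd53: tactcagtctcACTTCCTCactcttctcac
Serpinb1a: ttgctctgagcACTTCCTCcttggtcagct
Ifi30: atccaaaagccTCACGTGAccggacatact

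The upstream 250 bases of Serpinb1a (chr17:31799196-31799445, plus strand, GRCr8) are given in full, as the gene with the smallest neonate difference of the 9, with the GAGGAAGT match on the opposite strand in capitals.
Serpinb1a upstream: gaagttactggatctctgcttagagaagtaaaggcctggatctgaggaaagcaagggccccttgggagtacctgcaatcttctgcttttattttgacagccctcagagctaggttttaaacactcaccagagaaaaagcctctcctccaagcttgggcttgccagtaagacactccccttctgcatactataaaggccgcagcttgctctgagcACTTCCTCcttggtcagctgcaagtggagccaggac

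The interferon-stimulated response element, TGANTCA (AP-1), the NF-kB site and TTGCNNAA (C/EBP) were searched on both strands of the same windows. They were found in 0 of the 8, against 3.77%, 7.33%, 0.371% and 10.5% of all windows. A match or its absence in this window describes letters only.

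Because the difference between the ages after SNI chose the genes, the values after SNI are given as a description, without a test. In adults all 9 genes had every SNI array above every sham array, as 1.8% of the 7006 genes tested did. Their adult differences, SNI minus sham, ran from 1.32 log2 for Cyba to 4.42 log2 for Plac8, with a median of 1.83 log2 against -0.03 log2 over all genes tested. In neonates 5 of the 9 had no overlap, with the SNI arrays above, as 0.485% of all genes tested did. The neonate differences ran from 0.20 log2 for Serpinb1a to 2.23 log2 for Plac8, with a median of 0.58 log2 against -0.01 log2 over all genes tested. In bulk tissue fewer cells of a type and less RNA per cell cannot be told apart.

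**Figure D1:**
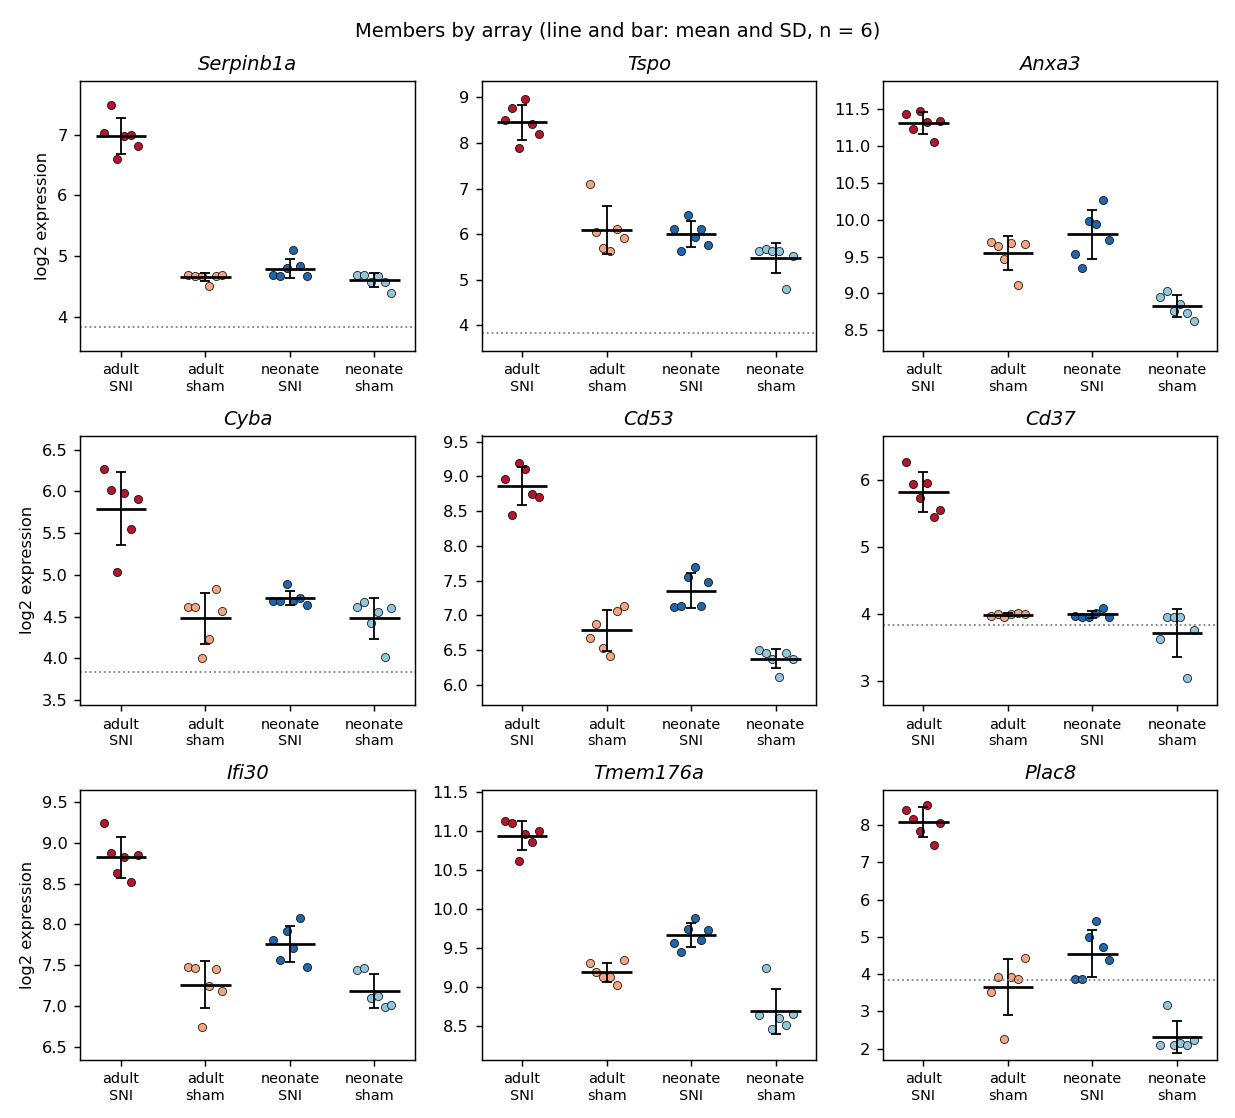
Log2 expression of the 9 genes on each of the 24 arrays, by group (adult SNI, adult sham, neonate SNI, neonate sham); lines and bars are the mean and SD of 6 arrays, and the dotted line, where it falls in a panel, is the filter level of 3.84 log2. In every panel the 6 adult SNI arrays lie above all arrays of the other groups, and neonate SNI arrays overlap adult sham arrays in 8 of the 9 panels.

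The tetraspanins Cd53 and Cd37 had neonate differences of unlike size. Cd53 had a lowest, median and highest value of 8.45, 8.85 and 9.19 log2 in adult SNI, against 6.41, 6.78 and 7.14 log2 in adult sham. In neonates the 3 values of Cd53 were 7.12, 7.31 and 7.69 log2 after SNI and 6.11, 6.42 and 6.50 log2 in sham. The SNI arrays of Cd53 were thus apart from sham at both ages, by 2.07 log2 in adults and 0.97 log2 in neonates (SE 0.14 each).

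Cd37 had 5.46, 5.84 and 6.27 log2 in adult SNI as its lowest, median and highest value, against 3.96, 4.00 and 4.02 log2 in adult sham. Neonates had 3.96, 3.97 and 4.10 log2 after SNI and 3.04, 3.87 and 3.96 log2 in sham. The neonate groups of Cd37 overlapped, and only the adult SNI arrays stood clear, with a difference of 1.83 log2 in adults and 0.27 log2 in neonates (SE 0.13 each). A window of 0.05 log2 from 3.96 log2 held 12 of the 24 arrays of Cd37, 5 of adult sham, 4 of neonate SNI and 3 of neonate sham. The median over all probe sets tested was 5 arrays in such a window, and 24.4% had at least 8. These arrays of Cd37 sat at a common low value, just above the filter level, so differences among the 3 lower groups could not be resolved.

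Cyba, the oxidase subunit, had the smallest adult difference of the 9. Its lowest, median and highest values were 5.03, 5.94 and 6.27 log2 in adult SNI and 4.01, 4.59 and 4.83 log2 in adult sham, a difference of 1.32 log2. In neonates they were 4.64, 4.69 and 4.89 log2 after SNI and 4.01, 4.58 and 4.68 log2 in sham, a difference of 0.24 log2 (SE 0.16 each). The neonate groups overlapped, while the adult groups did not. The second probe set of Cyba gave no usable measure. It stayed below the filter level on all 24 arrays, with a highest value of 2.27 log2, and did not show the adult difference (0.03 log2).

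Ifi30, the lysosomal reductase, differed between SNI and sham at both ages without overlap. It had 8.52, 8.84 and 9.25 log2 in adult SNI as its lowest, median and highest value, against 6.74, 7.35 and 7.48 log2 in adult sham. Ifi30 in neonates had 7.48, 7.76 and 8.08 log2 after SNI and 6.99, 7.11 and 7.46 log2 in sham. The SNI arrays of Ifi30 were above all sham arrays at both ages, by a mean of 1.56 log2 in adults and 0.58 log2 in neonates (SE 0.14 each), although the nearest neonate arrays, at 7.48 log2 after SNI and 7.46 log2 in sham, nearly met.

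Tspo, the mitochondrial translocator protein, and Serpinb1a, the protease inhibitor, had adult differences of similar size. Tspo had 7.90, 8.46 and 8.96 log2 in adult SNI as its lowest, median and highest value, against 5.63, 5.98 and 7.09 log2 in adult sham. Neonate Tspo values were 5.63, 6.02 and 6.42 log2 after SNI and 4.79, 5.63 and 5.66 log2 in sham. The differences of Tspo were 2.38 log2 in adults and 0.52 log2 in neonates (SE 0.21 each), and the neonate groups overlapped.

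Serpinb1a had 6.60, 6.99 and 7.49 log2 in adult SNI as its lowest, median and highest value, against 4.51, 4.67 and 4.69 log2 in adult sham. Among neonates Serpinb1a had 4.67, 4.74 and 5.10 log2 after SNI and 4.39, 4.62 and 4.69 log2 in sham. The differences were 2.33 log2 in adults and 0.20 log2 in neonates (SE 0.11 each), and the neonate groups overlapped. For Serpinb1a a window of 0.05 log2 from 4.67 log2 held 11 of the 24 arrays, 5 of adult sham and 3 of each neonate group, and none of adult SNI. As for Cd37, these arrays shared a low value, here above the filter level, and small differences among them could not be resolved.

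Anxa3, the phospholipid-binding protein, and Tmem176a, the MS4A-related membrane protein, had nearly the same differences. Anxa3 had 11.05, 11.32 and 11.48 log2 in adult SNI as its lowest, median and highest value, against 9.12, 9.65 and 9.69 log2 in adult sham. In neonates it had 9.35, 9.83 and 10.26 log2 after SNI and 8.62, 8.81 and 9.03 log2 in sham. The differences of Anxa3 were 1.76 log2 in adults and 0.97 log2 in neonates (SE 0.13 each), with no overlap at either age. A second probe set of Anxa3 differed by 2.42 log2 in adults (SE 0.19), more than the first. In neonates its SNI and sham arrays overlapped, and 1 of 6 sham arrays lay above the filter level. The third stayed below the filter level on all arrays and gave no usable measure.

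Tmem176a had 10.61, 10.98 and 11.13 log2 in adult SNI as its lowest, median and highest value, against 9.03, 9.16 and 9.35 log2 in adult sham. In neonates it had 9.46, 9.67 and 9.89 log2 after SNI and 8.47, 8.62 and 9.25 log2 in sham. The differences were 1.76 log2 in adults and 0.98 log2 in neonates (SE 0.11 each), with no overlap at either age. Tmem176a was the only one of the 9 in which every neonate SNI array also lay above every adult sham array, as in 3.95% of all genes tested.

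Plac8, the cysteine-rich protein, had the largest measured differences of the 9 at both ages. It had 7.45, 8.11 and 8.54 log2 in adult SNI as its lowest, median and highest value, against 2.26, 3.90 and 4.44 log2 in adult sham. In neonates it had 3.86, 4.57 and 5.43 log2 after SNI and 2.11, 2.13 and 3.18 log2 in sham. The measured differences were 4.42 log2 in adults and 2.23 log2 in neonates (SE 0.30 each), with no overlap at either age. All 6 neonate sham arrays of Plac8 lay below the filter level, so the neonate SNI mean was at least 1.64-fold higher when set against that level.

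**Figure D2:**
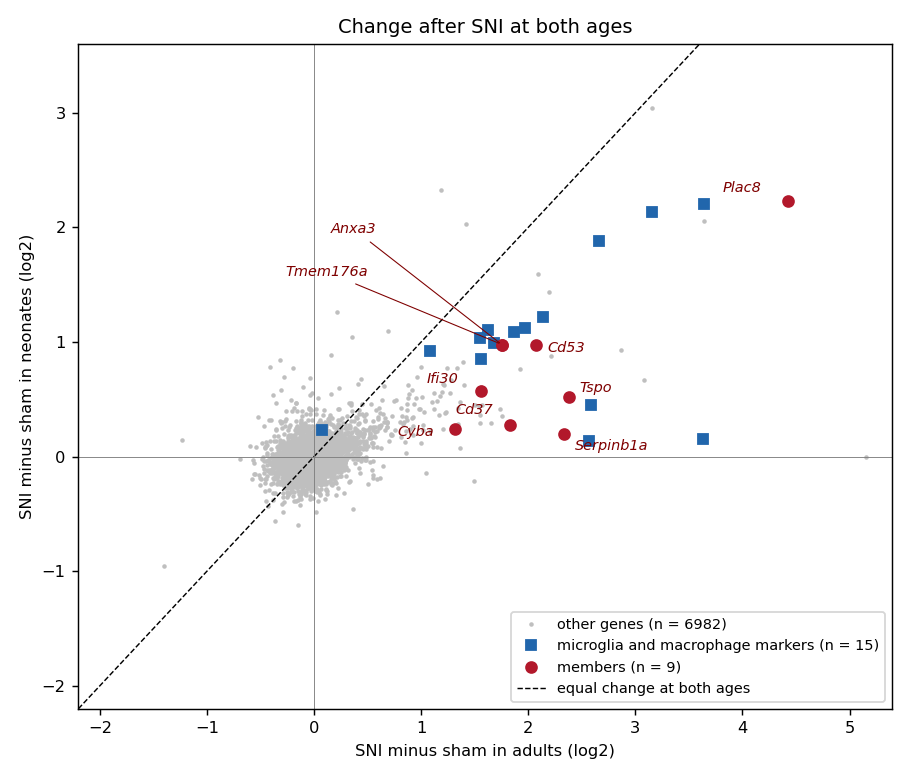
Difference between SNI and sham in adults (x axis) and in neonates (y axis), in log2, for 9 members (red circles), 15 microglia and macrophage markers (blue squares) and 6982 other genes (grey); the dashed line marks an equal change at both ages. All 9 members lie below the dashed line, as their choice required, with Plac8, Anxa3, Tmem176a and Cd53 higher on the y axis than Serpinb1a, Cyba and Cd37. The height of Plac8 rests on a neonate sham group below the filter level.

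The neonate difference made up a different share of the adult one in different members. On the log2 scale it was 55.7% for Tmem176a, 55.3% for Anxa3, 46.9% for Cd53 and 36.9% for Ifi30, whose neonate SNI and sham arrays did not overlap. It was 21.8% for Tspo and 18.3% for Cyba, whose neonate groups overlapped. Neonate SNI arrays 1, 2 and 4 of Cyba shared a value of 4.69 log2. A window of 0.05 log2 from 5.63 log2 held 4 of the 6 neonate sham arrays of Tspo. Small neonate differences were thus poorly resolved for Tspo and Cyba too. The measured shares of Cd37 and Serpinb1a were 15% and 8.39%, but they rest on low values at which small differences were not resolved. No share is given for Plac8, since its neonate sham arrays were all below the filter level. With values below that level raised to it, Plac8 differed by 0.72 log2 in neonates. By the probe set that stood for each gene, the neonate groups thus overlapped in Serpinb1a, Cd37, Cyba and Tspo. In the other 5 genes every neonate SNI array lay above every neonate sham array. Overlap does not by itself show that a gene did not differ.

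The order of the levels was alike across the 9 genes. Adult SNI was highest in all of them, without overlap with neonate SNI, as in 4.78% of all genes tested. Neonate SNI and adult sham, the neighbours in the middle, overlapped in 8 of 9 genes. Among all genes tested, 3.95% had neonate SNI wholly above adult sham, so this overlap is not read as a trait of the members. The mean differences, neonate SNI minus adult sham, ran from -0.09 log2 for Tspo to 0.90 log2 for Plac8, where adult sham had 4 of 6 arrays above the filter level. Neonate sham had the lowest mean in 8 genes, but its difference from adult sham did not pass limma's threshold for Ifi30, Serpinb1a, Cd37 and Tspo among them. For Cyba, adult sham (4.48 ± 0.30 log2) and neonate sham (4.48 ± 0.24 log2; SD, n = 6 each) were level.

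The comparison of adult sham with neonate sham asked whether the genes differed with age without nerve injury. It was not the contrast by which the genes were chosen, but its arrays are the sham arrays of that choice. By limma with Benjamini-Hochberg adjustment over all probe sets tested, 4 of the 9 genes were higher in adult sham and 0 were lower, against 7.86% and 8.59% of all genes tested. At an unadjusted p under 0.05 the same test gave 5 genes. Plac8 rose by 1.34 log2 with age (SE 0.30, limma adjusted p = 0.0031), with every neonate sham array below the filter level. Anxa3 rose by 0.72 log2 (SE 0.13, limma adjusted p = 2.8e-04), with 9.54 ± 0.23 log2 in adult sham and 8.83 ± 0.15 log2 in neonate sham (SD, n = 6 each) and no overlap. It was the only member without overlap between the sham groups, as 4.54% of all genes tested were.

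Tmem176a rose by 0.50 log2 with age (SE 0.11, limma adjusted p = 0.0031), although 1 neonate sham array reached the adult range. Cd53 rose by 0.41 log2 (SE 0.14, limma adjusted p = 0.048), and this call was lost without any 1 of 15 arrays, at adjusted p of 0.0505 to 0.118. The call of Plac8 was lost when values below the filter level were raised to it, which left 0.14 log2 (adjusted p = 0.73). Tspo differed by 0.61 log2 (SE 0.21, limma adjusted p = 0.054), and Cd37 by 0.27 log2 (SE 0.13, adjusted p = 0.19). The sham values of Ifi30 differed by 0.08 log2 (adjusted p = 0.76), those of Serpinb1a by 0.06 log2 (adjusted p = 0.78) and those of Cyba by -0.004 log2 (adjusted p = 0.99).

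**Figure D3:**
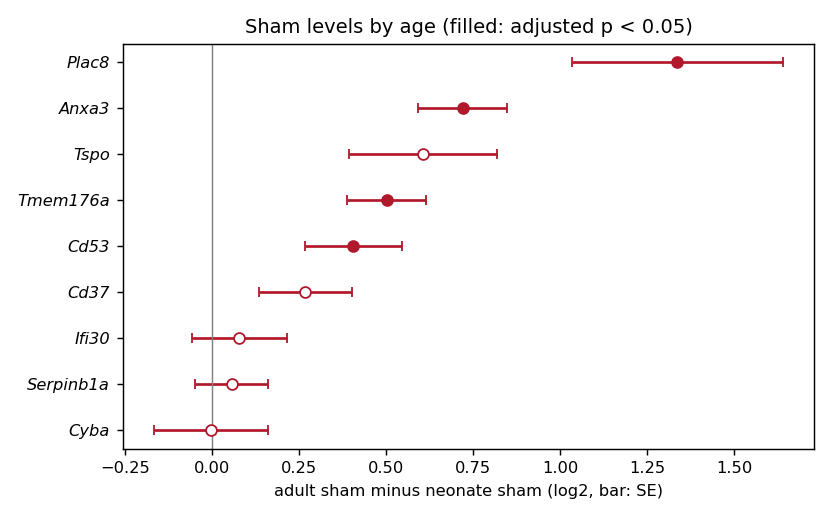
Adult sham minus neonate sham in log2 for each of the 9 genes, with the standard error of the limma fit as bars; filled points have an adjusted p under 0.05. Plac8, Anxa3, Tmem176a and Cd53 are filled and lie between 0.41 and 1.34 log2, while Ifi30, Serpinb1a and Cyba lie within 0.08 log2 of 0.

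Genes that work with the members were read from 8 lists, leaving the members out. Together the lists held 56 genes that could be tested, of which 9 rose after SNI in adults and 0 fell (limma adjusted p under 0.05), against 1.98% and 0.0285% of all genes tested. The 9 include Rac2 and Ptprc, whose sham arrays all lay below the filter level. SNI arrays alone admitted these genes to the test, so their calls were favoured by the filter. In neonates 5 rose and 0 fell, against 0.357% and 0% of all genes tested. The difference between the ages passed the threshold for 1 gene, against 0.257% of all genes tested.

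That gene was Rac2, the leukocyte GTPase that activates the phagocyte NADPH oxidase together with Cyba's product. Rac2 averaged 5.04 ± 0.39 log2 in adult SNI and 3.28 ± 0.24 log2 in adult sham (SD, n = 6 each), at least 2.31-fold higher after SNI against the filter level. It averaged 3.44 ± 0.23 log2 in neonate SNI and 3.09 ± 0.18 log2 in neonate sham, with all arrays below the filter level. Rac2 therefore passed the filter through adult SNI alone, so no p is given for its adult difference. The size of its difference between the ages is not resolved. Of the 2 other oxidase genes tested, Rac1 and Rap1a, 0 passed, with adult differences of 0.01 and 0.12 log2. Of 8 measured oxidase genes 5 did not pass the filter, among them Cybb, the catalytic chain, and Ncf1, a cytosolic subunit.

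In the list of MHC class II and lysosomal processing, which holds the partners of Ifi30, 5 of 11 tested genes rose in adults and 4 in neonates, with medians of 0.91 and 0.42 log2 against -0.03 and -0.01 log2 over all genes tested. The protease Ctsz rose by 2.19 log2 in adults (SE 0.24, limma adjusted p = 9.2e-07) and 1.44 log2 in neonates (adjusted p = 0.0024). RT1-DMb and RT1-DMa, which form the molecule that loads peptides on MHC class II, rose by 1.36 and 1.34 log2 in adults, with 0.48 and 0.42 log2 in neonates, where neither passed (adjusted p = 1.0 each). The antigen-processing protease Ctss rose by 0.91 log2 in adults and 0.58 log2 in neonates (adjusted p = 0.048), a neonate call that was lost in 21 of the alternatives. The neonate call of the MHC class II chain RT1-Da (2.03 log2) was lost in 9, at adjusted p of 0.0538 to 0.101, including 0.0554 with the replicate block. Cd74, also on this list, had a larger difference in neonates (2.32 log2) than in adults (1.19 log2), the reverse of the members. The difference between the ages passed limma's adjusted threshold for 0 of the 11 genes, while 4 had an unadjusted p under 0.05.

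Of the 18 other tetraspanins tested 1 rose in adults and 0 in neonates, against 2 at an unadjusted p under 0.05 in each. Tspan8 rose by 1.20 log2 in adults (SE 0.21, limma adjusted p = 5.6e-04) and differed by 0.56 log2 in neonates (adjusted p = 1.0). The median adult difference of these tetraspanins was 0.02 log2. Of 4 tetraspanin partners tested 1 was called higher in adults, the leukocyte phosphatase Ptprc, also called CD45, at least 1.85-fold against the filter level. All sham arrays of Ptprc lay below the filter level at both ages. Ptprc therefore passed the filter through SNI arrays alone, so no p is given for its adult difference. No difference between the ages is given for it either.

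Tmem176b, which neighbours Tmem176a in the genome and encodes a related membrane protein, rose at both ages. It rose by 1.33 log2 in adults (SE 0.13, limma adjusted p = 7.5e-08) and by 0.77 log2 in neonates (adjusted p = 0.0017). The difference between the ages for Tmem176b was 0.56 log2 (SE 0.18, adjusted p = 0.62). It was also higher in adult sham than in neonate sham, by 0.52 log2 (adjusted p = 0.0050).

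Members of 3 further lists did not pass after SNI at either age. Of 10 other annexins and their S100 partners 0 passed in adults and 0 in neonates by limma, against 1 at an unadjusted p under 0.05 in each. Anxa6 and Anxa2, those with the highest mean signal, differed by -0.003 and 0.17 log2 in adults. Of 2 other clade B serpins, Serpinb6a and Serpinb9, 0 passed by limma and 0 had an unadjusted p under 0.05, with adult differences of 0.20 and 0.13 log2. Of 7 partners of Tspo and genes of steroid synthesis 0 passed by limma and 0 had an unadjusted p under 0.05. The mitochondrial channels Vdac2 and Vdac1, which Tspo is known to bind, differed by -0.04 and -0.06 log2 in adults.

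Markers of the cell types that could carry these genes were read beside them. Of 15 tested microglia and macrophage markers 14 rose in adults and 10 in neonates (limma adjusted p under 0.05), with medians of 1.97 and 1.04 log2. The neonate call of P2ry12 was lost in 19 alternatives (adjusted p 0.0518 to 0.172), that of Tyrobp in 1 (0.456) and the adult call of Cx3cr1 in 4 (0.0503 to 0.104). Their mean ran from 8.00 to 8.50 log2 in adult SNI, against 5.77 to 6.25 log2 in adult sham. In neonates it ran from 6.34 to 6.99 log2 after SNI and from 5.34 to 6.00 log2 in sham. Astrocyte (10 tested), neuron (10), endothelial (7), oligodendrocyte (6) and Schwann cell (5) markers gave 0 calls by limma after SNI at either age, with 1 astrocyte marker under an unadjusted p of 0.05 at each age and 0 of the others. The microglia and macrophage markers thus moved in the same direction as the 9 genes, and their part in the values was not tested.

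The adult difference minus the neonate one had a median of 0.78 log2 over the 15 markers, against -0.02 log2 over all genes tested. It passed limma's adjusted threshold for 3 of them, and 12 had an unadjusted p under 0.05. The 3 were the Fc receptor Fcgr3a, the receptor partner Ly86 and the transcription factor Irf8, which lay above the filter level on 6 arrays each, all of adult SNI. They entered the test through that group alone, and with the other groups at background the size of a difference between the ages is not resolved for them. Set against the filter level, adult SNI was at least 4.35-fold higher for Fcgr3a, 4.74-fold for Ly86 and 3.40-fold for Irf8. Since adult SNI admitted them to the test, no p is given for their adult comparison. They are among the 14 markers counted as rising in adults and the 12 counted here, and the medians include them. C1qc, a chain of complement C1q, had 3.64 log2 in adults and 2.20 log2 in neonates, and the difference of 1.44 log2 did not pass (SE 0.39, adjusted p = 0.27).

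Markers of other leukocytes were mostly at background. Of 8 measured neutrophil markers 7 stayed at or below the filter level on every array, and S100a9 lay above it on 14 of 24 arrays. Of 13 T and NK cell markers 12 stayed at or below it, Cd3d, Cd3e and Cd3g among them, and Cd4, which macrophages of the rat also bear, lay above it on 3 arrays. The only B cell marker measured, Cd79b, stayed below it. Of 7 markers of border macrophages and monocytes 5 stayed at or below it, including Ccr2 and Cd14, while the lysozyme Lyz2 rose by 1.00 log2 in adults (limma adjusted p = 0.0060). Of 17 measured microglia and macrophage markers Itgam also stayed below it on every array. Cd68 lay above it on 5 arrays, so neither was tested. Background signal of a marker does not by itself show that a cell type is absent.

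The genes whose levels over the 24 arrays were most like the mean of the 9 members were Irf8, the lysosomal protease Ctsh, the Fc receptor Fcgr2b, Tmem176b, progranulin (Grn) and the colony-stimulating factor receptor Csf1r. Their Pearson correlations with that mean were 0.976, 0.969, 0.967, 0.964, 0.959 and 0.956, as a description over arrays that share the groups. The members were chosen for a larger adult difference, so a gene high in adult SNI alone can rank high by this measure. Irf8 and Fcgr2b had means below the filter level in adult sham, neonate SNI and neonate sham. Their likeness to the members among those groups is therefore not resolved. Grn averaged 11.16 log2 in adult SNI and 9.66 log2 in adult sham, 10.12 log2 in neonate SNI and 9.67 log2 in neonate sham. The 9 members themselves had correlations of 0.922 (Cyba) to 0.977 (Plac8) with the mean of the other 8.

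The deviation of each array from its group mean was not used to choose the genes, and describes whether they moved together among arrays of 1 group. Over the 24 arrays the deviations of the 36 pairs of members had a median Pearson correlation of 0.39, against 0.03 over all pairs of the 7006 genes tested. The correlation was above 0 in 33 of the 36 pairs, which is 91.7%, against 53.5% of all pairs. The highest was 0.71, between Cyba and Ifi30, followed by 0.64 between Tspo and Cyba and 0.61 between Tmem176a and Plac8. The lowest was -0.12, between Serpinb1a and Cd53. Plac8 had 4 of 6 adult sham arrays and 0 of 6 neonate sham arrays above the filter level. Its correlations therefore rest partly on values near background. The pairs share their arrays, so they are not independent, and no test was made.

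Within single groups of 6 arrays the median correlation of the 36 pairs was 0.51 in adult SNI, 0.32 in adult sham, 0.41 in neonate SNI and 0.37 in neonate sham. With the replicate number removed as well, the median over the 24 arrays was 0.39. The genes outside the set whose deviations were most like those of the members were C1qc, C3, C1qa, Grn, Ifi27 and Gmfg, with correlations of 0.805, 0.782, 0.777, 0.735, 0.726 and 0.703. C1qc and C1qa are chains of complement C1q and C3 is the central complement protein. Cd37 and Serpinb1a, with their common low values, have little spread in adult sham, with SDs of 0.021 and 0.069 log2.

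**Figure D4:**
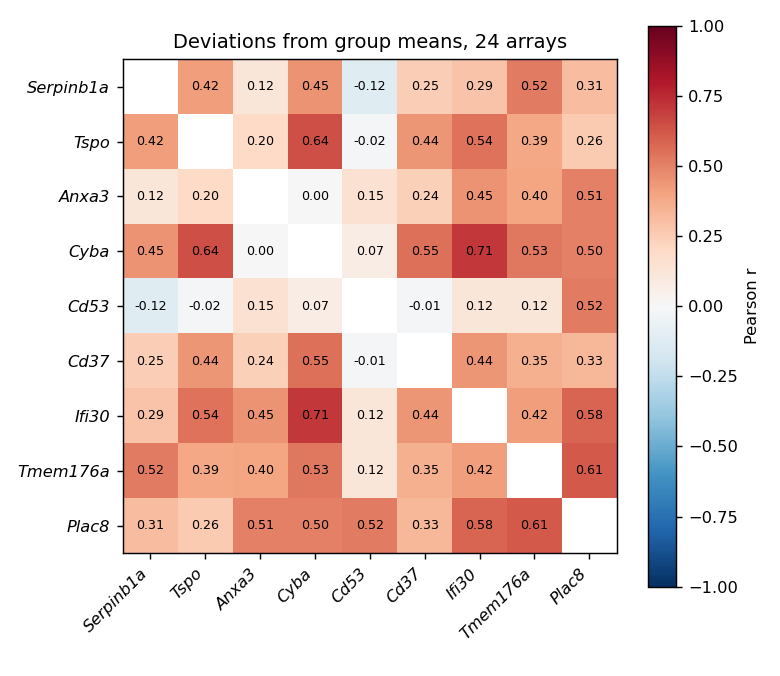
Pearson correlation between the deviations of each pair of members from their group means over 24 arrays, on a colour scale from -1 (blue) to 1 (red), with the value in each cell. Cyba and Ifi30 have the highest value, 0.71, and Cd53 has values close to 0 with Tspo (-0.02), Cyba (0.07) and Cd37 (-0.01).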

How the data were processed

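Expression was measured on 24 Affymetrix Rat Expression 230A arrays. The deposited values are log2 expression per probe set, made by the authors with GCRMA, per the submitters' processing notes, with the version not given in the sources used here. GCRMA corrects background by probe sequence. Dim arrays of the same probe set then often share 1 low value, and small differences among such arrays are poorly resolved.

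The 57 control probe sets were left out of 15923. Symbols came from the platform annotation: 12783 probe sets had 1 symbol, 312 several and 2771 none. Limma 3.58.1 in R 4.3.3 was fitted with a mean per group to all 24 arrays (20 residual degrees of freedom), tested on simulated data, with two-sided p-values adjusted by the Benjamini-Hochberg method over 9638 probe sets at a threshold of 0.05. Figures used matplotlib 3.10.9. Promoter windows came from RefSeq tables. No coordinates are given for probe sets.

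The members and lists were chosen with earlier results of these data known. Genes were named by a rule: every member, up to 4 list genes with the smallest p in adults plus those that passed between ages (otherwise the 2 with the highest mean), and the 6 genes most like the members by each measure. The leukocyte markers at background, S100a9, Itgam, Cd68, Cybb, Ncf1, P2ry12, Tyrobp, Cx3cr1, RT1-Da and Cd74 were named after their values were seen. Alternatives were a replicate block, quantile normalization, other filters, dim values raised to the filter level, sham arrays alone, eBayes with trend and robust, and leaving out each array.

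Deviations from group means correlated between same-numbered SNI and sham arrays. Over 6 adult pairs r ran from 0.10 to 0.56 (mean 0.38), and over 6 neonate pairs from 0.24 to 0.61 (mean 0.45). Between the ages, same-numbered arrays had r from 0.014 to 0.43 for sham (mean 0.26) and from 0.035 to 0.64 for SNI (mean 0.31). The main fit used no pairs, so its SEs and p-values leave this likeness out. The replicate block fitted each number as 1 effect shared by all 4 groups, across the ages too.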

Additional observations from a re-analysis of the deposited data

Results flagged for a closer look

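Of 36 sets of 6 arrays (9 genes in 4 groups), 9 had an array whose gap to its nearest neighbour was, as a share of the range, above Dixon's critical value. Chance gives about 1 in 20 for normally spread values. Flagged sets of Serpinb1a, Cyba, Cd37 and Plac8 hold repeated low values, which narrow the range, so the 9 cannot be read against that rate. No adult SNI set was flagged. In neonate SNI, array 4 of Serpinb1a had 5.10 log2 against 4.67 to 4.83 on the others, and array 3 of Cyba had 4.89 log2 against 4.64 to 4.72. In adult sham, array 1 of Tspo had 7.09 log2 against 5.63 to 6.11, and array 4 of Serpinb1a had 4.51 log2 against 4.67 to 4.69. In neonate sham, array 5 was low for Tspo, at 4.79 log2 against 5.51 to 5.66, and for Cd37, at 3.04 log2 against 3.64 to 3.96. Array 2 of neonate sham was high for Tmem176a, at 9.25 log2 against 8.47 to 8.65, and for Plac8, at 3.18 log2 against 2.11 to 2.25. Array 4 of neonate sham was low for Cd53, at 6.11 log2 against 6.38 to 6.50. Without adult sham 1 the adult difference of Tspo was 2.58 log2, against 2.38 log2 with it.

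Limma's interaction test of the injury effect between the ages passed for 4 listed genes outside the set. The fitted difference, adult minus neonate, was 3.48 log2 for Fcgr3a, 2.44 log2 for Ly86, 2.14 log2 for Irf8 and 1.40 log2 for Rac2. All 4 had every array outside adult SNI below the filter level and entered the test through adult SNI alone, so these fitted values do not measure how far the ages differed.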

How the results depend on the processing

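Leaving out any 1 of the 24 arrays kept the median difference after SNI between 1.74 and 1.90 log2 in adults and between 0.51 and 0.63 log2 in neonates, and the number of members called higher in adult sham between 3 and 5. The median correlation of deviations ran from 0.34 to 0.42 without any 1 array, and from 0.33 to 0.39 under 3 other alternatives chosen after seeing the data. Of the pathway genes, leaving out 1 array gave 9 to 11 calls in adults, 3 to 5 in neonates, 1 to 2 between the ages and 15 to 19 for age in sham. The neonate count was 3 without neonate SNI 3 or 5 or neonate sham 3, 4, 5 or 6, and the count between the ages was 2 without adult SNI 4 or 6 or neonate SNI 3. With the replicate block, pathway calls between the ages numbered 2 (Rac2 and Ptprc), against 1 without it (Rac2), and both genes have sham groups below the filter level. The block did not move the other pathway counts by over 1.5 times. It brought Tspo to an adjusted p of 0.039 for age in sham, where it ties adult and neonate arrays of the same number. A filter at the 60th percentile left 5 pathway calls in adults and 0 between the ages, since fewer genes were tested. With no filter, 3 were called in neonates, and Cd53 had an adjusted p of 0.090 for age in sham. Raising values below the filter level to it left the neonate difference of Plac8 at 0.72 log2. The near-zero sham difference of Cyba, -0.004 log2, turned sign in 7 alternatives: 0.0076 log2 after quantile normalization, and without 1 array between -0.10 and 0.09 log2 (0.09 and 0.05 log2 without adult sham 3 and 4, and 0.02, 0.04, 0.01 and 0.02 log2 without neonate sham 1, 2, 4 and 6). Tspo passed for age in sham without any 1 of 5 arrays (adjusted p 0.0361 to 0.0499). The call of Cd53 was lost without any 1 neonate sham array, adult sham 1, 2, 5 or 6, adult SNI 1, 5 or 6, or neonate SNI 2 or 6.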
